A study of Mus musculus with 6 samples.

Results

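The ATF4 and CHOP stress effectors are 10 genes of the integrated stress response: Atf4, Atf3, Atf5, Ddit3, Ddit4, Trib3, Chac1, Sesn2, Gdf15 and Fgf21. They were taken as a named list, by the probe sets (groups of short probes against 1 transcript) that the platform annotation assigns to exactly 1 of them. That rule found 14 probe sets for 9 of the 10 genes, out of 18193 genes in all. Gdf15 was not analysed here, because the annotation used lists no probe set under its name. Each gene is given by its probe set with the highest mean over all arrays, and the others are shown beside it.

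Expression was measured on 6 Affymetrix arrays, 1 per sample, in macro-dissected kidney epithelium of mice. The 3 knockout samples are cystic epithelium of Fh1 knockout mice, and the 3 wild-type samples are renal epithelium of sex-matched, disease-free littermates. Fh1 encodes fumarate hydratase of the tricarboxylic acid cycle. The sources used here give no strain, age, promoter or Cre line for the knockout. Knockout tissue was cystic and wild-type tissue was not, so genotype and cyst formation cannot be told apart. The labels do not tie samples to individual animals, so the p-values cover the spread among these 6 samples, which may be technical.

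In the integrated stress response, kinases that sense ER stress (Eif2ak3, PERK), amino acid shortage (Eif2ak4, GCN2), haem shortage and mitochondrial stress (Eif2ak1, HRI) or double-stranded RNA (Eif2ak2, PKR) phosphorylate the initiation factor eIF2. Bulk protein synthesis then falls, while the mRNA of the transcription factor ATF4 is translated more. ATF4, a basic leucine zipper (bZIP) protein, turns on genes of amino acid supply and further bZIP factors, among them CHOP, the product of Ddit3. Much of ATF4's regulation is at translation, which arrays of mRNA do not read.

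ATF4 with a C/EBP partner binds a composite DNA element. The RefSeq promoter windows of GRCm38.p6, from 250 bases before to 50 bases after a gene's start, were searched on both strands for TGATGNAA (TTNCATCA on the other strand). This match is a description of letters, not a binding site. It was found in 1304 of 32851 windows, or 3.97%. Among the 9 measured members, 4 held it, and their windows are printed because these are the members with the letters. Each is shown 5′ to 3′ on the gene's strand, with the match in capitals.

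Atf3, chr1:191183284-191183583, minus strand: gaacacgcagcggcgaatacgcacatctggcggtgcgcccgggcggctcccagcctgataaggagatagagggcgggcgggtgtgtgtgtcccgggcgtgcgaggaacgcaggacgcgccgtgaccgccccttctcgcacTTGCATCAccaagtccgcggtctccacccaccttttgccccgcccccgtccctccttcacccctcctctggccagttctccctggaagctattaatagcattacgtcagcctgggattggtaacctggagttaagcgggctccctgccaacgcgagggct
Chac1, chr2:119350992-119351291, plus strand: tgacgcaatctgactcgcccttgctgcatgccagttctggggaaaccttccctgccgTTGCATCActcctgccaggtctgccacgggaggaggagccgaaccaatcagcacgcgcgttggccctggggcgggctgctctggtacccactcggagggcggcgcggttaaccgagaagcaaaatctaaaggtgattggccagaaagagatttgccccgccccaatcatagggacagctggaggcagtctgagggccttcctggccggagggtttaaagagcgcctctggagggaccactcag
Trib3, chr2:152344011-152344310, minus strand: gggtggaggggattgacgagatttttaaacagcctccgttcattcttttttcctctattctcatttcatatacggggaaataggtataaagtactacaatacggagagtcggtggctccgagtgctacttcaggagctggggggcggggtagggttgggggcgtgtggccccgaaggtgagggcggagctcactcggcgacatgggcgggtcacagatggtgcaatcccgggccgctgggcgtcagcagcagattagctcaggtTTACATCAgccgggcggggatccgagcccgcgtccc
Fgf21, chr7:45615441-45615740, minus strand: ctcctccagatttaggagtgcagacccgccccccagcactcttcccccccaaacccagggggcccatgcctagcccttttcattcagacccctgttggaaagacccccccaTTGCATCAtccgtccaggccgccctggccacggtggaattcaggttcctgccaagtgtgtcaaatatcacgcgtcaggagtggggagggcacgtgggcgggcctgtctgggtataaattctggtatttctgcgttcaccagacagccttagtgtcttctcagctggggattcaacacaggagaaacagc

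In Atf3, Chac1 and Fgf21 the match reads TTGCATCA, at -110 to -103, -193 to -186 and -139 to -132 relative to the start. In Trib3 it reads TTACATCA and lies 14 to 21 bases after the start. The windows of Atf4, Atf5, Ddit3, Ddit4 and Sesn2 do not hold these letters. The full cyclic AMP response element TGACGTCA, found in 1.79% of windows, and the ER stress element (CCAAT, any 9 bases, then CCACG), found in 0.119%, matched in 0 of the 9 members. The core ACGTG of hypoxia response elements, which 19.6% of windows hold, matched in Ddit3, Ddit4 and Fgf21, and none of these overlaps the composite match.

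Of the 9 measured members, 7 were higher in the knockout and 2 did not pass the test. The test was limma's moderated comparison of log2 values, adjusted by Benjamini-Hochberg over all 18193 genes with a threshold of 0.05. By that test 21.6% of all genes were higher and 27.7% lower, 49.2% in all. Of the calls over all genes 56.2% were lower, and 67.0% with arrays centred on the median over tested genes. The median log2 fold change of the members was 1.45, against -0.11 for all genes. At least 2-fold, 5 members were higher, where 5.44% of all genes were higher and 3.39% lower (8.83% in all). All 9 members had knockout arrays wholly on one side of the wild-type arrays, 7 above and 2 below, as had 62.9% of all genes (25.7% above and 37.1% below). No member was lower by limma, and 0 were lower at an unadjusted p under 0.05.

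Levels below are RMA values in log2 units. Array medians ran from 6.19 to 6.24, lower quartiles from 4.61 to 4.77 and upper quartiles from 8.13 to 8.29. RMA gives no detection call, so a member near or under the median cannot be separated from background. Fh1, the targeted gene, had a log2 fold change of -0.74 (SE 0.08, adjusted p = 0.000396 by limma). Whether its probe set lies in the deleted part is not known here.

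**Figure D1:**
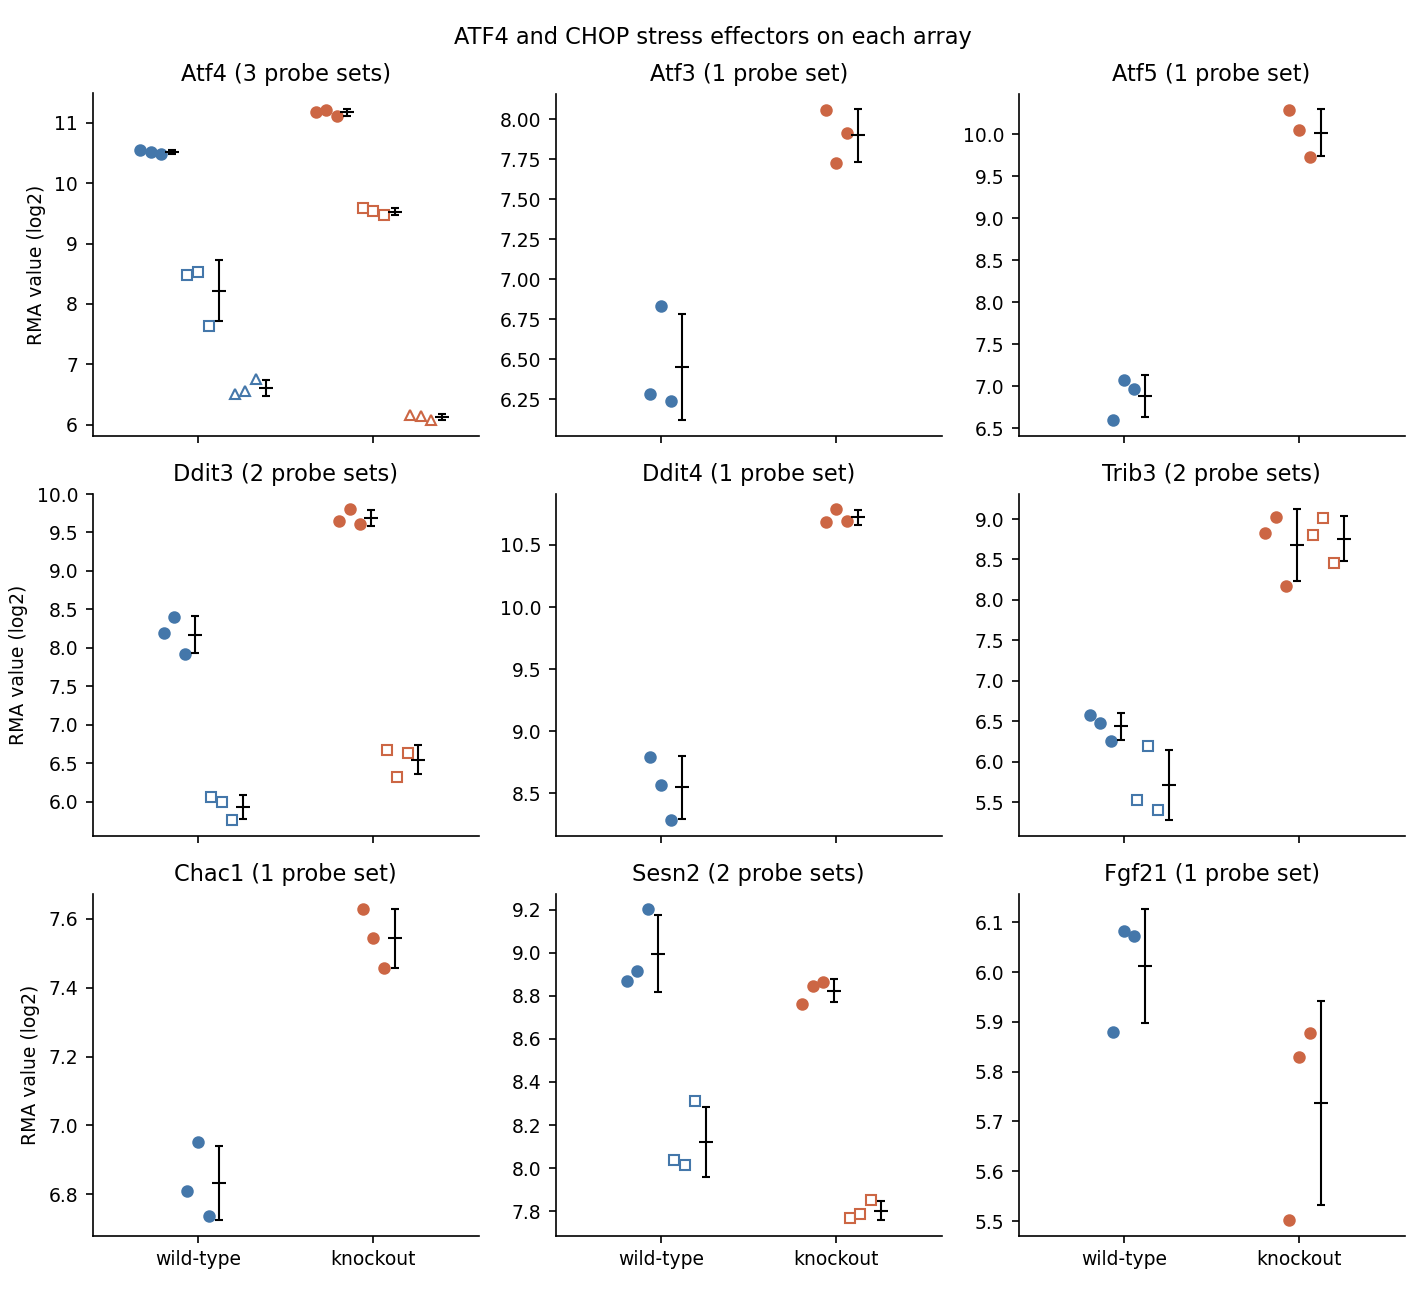
RMA values (log2, vertical axis, a separate scale in each panel) of the 9 measured members in wild-type (blue) and knockout (orange) arrays; each point is 1 array, black bars are the mean ± SD (n = 3), filled circles are the probe set used and open symbols the further ones. Knockout points of the used probe set lie above all wild-type points for 7 genes and below them for Sesn2 and Fgf21.

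Atf4, the factor that heads the response, was 1.57-fold higher. Its wild-type arrays read 10.56, 10.51 and 10.49 and its knockout arrays 11.19, 11.22 and 11.11. The groups were tight and apart, at 10.52 ± 0.03 (SD, n = 3) against 11.17 ± 0.06 (SD, n = 3). Limma gave a log2 fold change of 0.65 (SE 0.08, adjusted p = 0.000467).

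The other 2 Atf4 probe sets moved in opposite directions. The second read 8.48, 8.53 and 7.64 in wild-type and 9.59, 9.54 and 9.47 in knockout arrays, a log2 fold change of 1.31 (SE 0.22, adjusted p = 0.00246 by limma over 45037 probe sets). Wild-type 3 was the low array there. The third was dimmer and lower in the knockout, with wild-type arrays at 6.51, 6.55 and 6.75 and knockout arrays at 6.16, 6.14 and 6.08. Its log2 fold change was -0.48 (SE 0.09, adjusted p = 0.00477 over the same probe sets), and it lies close to the array medians. Among all probe sets 20.6% were called higher and 23.4% lower, 44% in all.

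Among the bZIP factors downstream of Atf4, Atf5 rose most of all members, 8.82-fold. ATF5 is a close relative of ATF4 that is likewise translated more under stress and is known for a role in the mitochondrial unfolded protein response. Wild-type arrays read 6.60, 7.08 and 6.96 and knockout arrays 10.29, 10.05 and 9.73. Wild-type values lay between the median and the upper quartile of the arrays and knockout values above the upper quartile. On the log2 scale Atf5 rose by 3.14 (SE 0.17, limma adjusted p = 2.53e-05), rank 33 of 18193 genes from the highest.

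Ddit3, which encodes CHOP, the factor linked to cell death under unresolved ER stress, was 2.86-fold higher. Its wild-type arrays read 8.19, 8.41 and 7.92 and its knockout arrays 9.65, 9.80 and 9.61. This was a log2 fold change of 1.52 (SE 0.13, limma adjusted p = 0.000127). The second Ddit3 probe set, with values from 5.76 to 6.68, moved the same way by a smaller amount (log2 fold change 0.61, SE 0.13, adjusted p = 0.0063 over all probe sets).

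Atf3, an immediate stress-induced factor that represses and activates targets, was 2.72-fold higher. Wild-type arrays read 6.29, 6.84 and 6.24 and knockout arrays 8.06, 7.73 and 7.91. Wild-type 2 stood above the other wild-type arrays but below every knockout array, and the other 2 wild-type values lay near the array medians. Limma gave 1.45 on the log2 scale (SE 0.17, adjusted p = 0.00048).

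Trib3, a pseudokinase induced by ATF4 and CHOP that feeds back on ATF4 and binds the kinase AKT, was 4.72-fold higher. Wild-type arrays read 6.58, 6.48 and 6.26 and knockout arrays 8.82, 9.03 and 8.17. Knockout 3 was the lowest knockout array and still above every wild-type array, and the lowest wild-type value lay near the array medians. The difference of means was 2.24 on the log2 scale (SE 0.21, limma adjusted p = 0.000181). Its second probe set gave a larger difference, 3.05 with SE 0.22 and adjusted p = 6.07e-05 over all probe sets.

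Chac1, which breaks down glutathione and is induced through ATF4, was 1.64-fold higher. Wild-type arrays read 6.81, 6.95 and 6.74 and knockout arrays 7.63, 7.54 and 7.46. Both groups lay between the median and the upper quartile of the arrays. Their means differed by 0.71 on the log2 scale (SE 0.09, limma adjusted p = 0.000745).

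Of the 2 members that restrain mTORC1, the growth kinase complex, Ddit4 rose and Sesn2 did not pass. Ddit4 (REDD1), which acts through the TSC complex and is also a target of hypoxia-inducible factors, read 8.79, 8.57 and 8.29 in wild-type and 10.68, 10.79 and 10.69 in knockout arrays. Its knockout arrays were closer together than its wild-type arrays. The difference was 4.51-fold (log2 fold change 2.17, SE 0.13, adjusted p = 3.26e-05 by limma).

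Sesn2, a leucine-binding inhibitor that acts through the GATOR2 complex, read 8.87, 8.92 and 9.20 in wild-type and 8.76, 8.84 and 8.86 in knockout arrays. The gap between the groups was narrow, and wild-type 3 was the high array. The log2 fold change was -0.17 with a 95% interval of -0.42 to 0.07 and adjusted p = 0.202 by limma. The second Sesn2 probe set was lower in the knockout, with wild-type arrays at 8.04, 8.02 and 8.31 and knockout arrays at 7.77, 7.79 and 7.85. Its log2 fold change was -0.32 (SE 0.10, adjusted p = 0.0361 over all probe sets). Neither interval holds a rise as large as that of Atf4.

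Fgf21, a hormone secreted under metabolic stress, read 5.88, 6.08 and 6.07 in wild-type and 5.50, 5.83 and 5.88 in knockout arrays. All 6 values lie below the array medians, and the highest knockout array stood just under the lowest wild-type array. The log2 fold change was -0.28 with a 95% interval of -0.56 to 0.01 and adjusted p = 0.0917 by limma. With arrays centred on the median over tested genes it was called lower (log2 fold change -0.35, adjusted p = 0.0345).

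**Figure D2:**
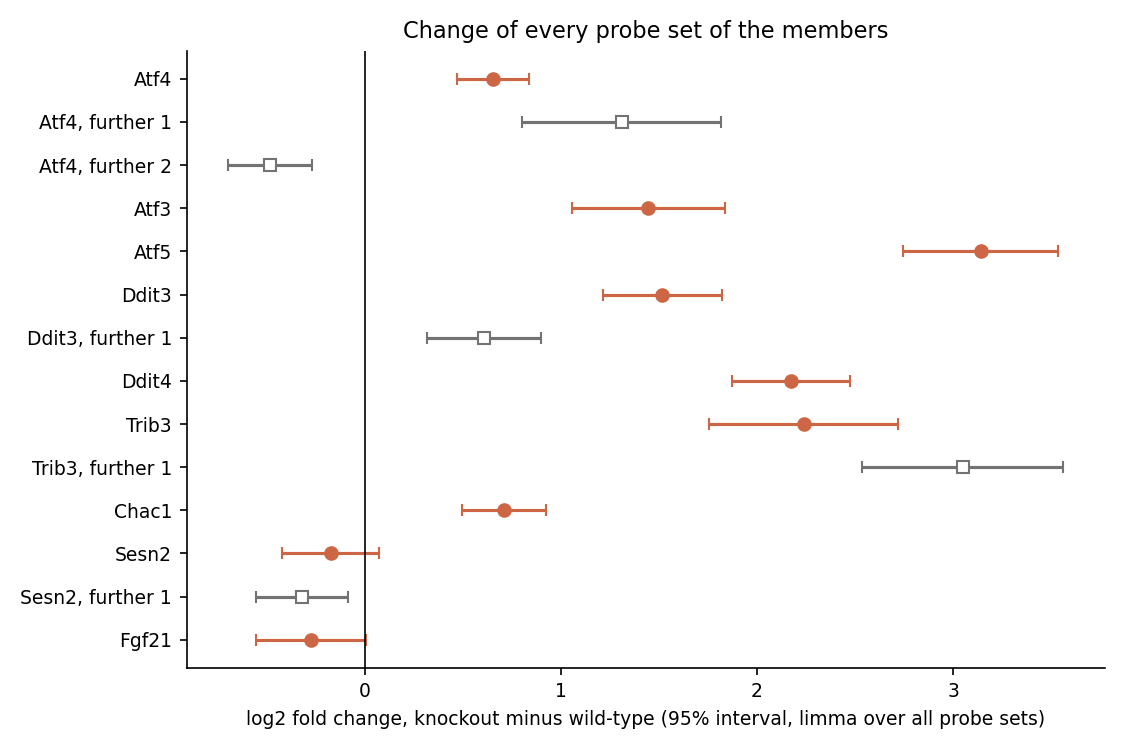
Log2 fold change, knockout minus wild-type (horizontal axis), of all 14 probe sets of the members with 95% intervals from limma over all probe sets; filled orange circles are the probe set used for a gene and open grey squares the further ones. Atf4 alone has called probe sets on both sides of 0, at 0.65, 1.31 and -0.48.

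Set beside the promoter letters shown above, 3 of the 4 measured members with the composite match were higher (Atf3, Chac1 and Trib3, but not Fgf21). Of the 5 without it in the windows searched, 4 were higher (Atf4, Atf5, Ddit3 and Ddit4, but not Sesn2). Among the 9 measured members together 7 were higher, and among all genes 21.6%. A difference between members with and without the match was not tested. Letters outside these windows were not searched, so a match further from the start would be missed.

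**Figure D3:**
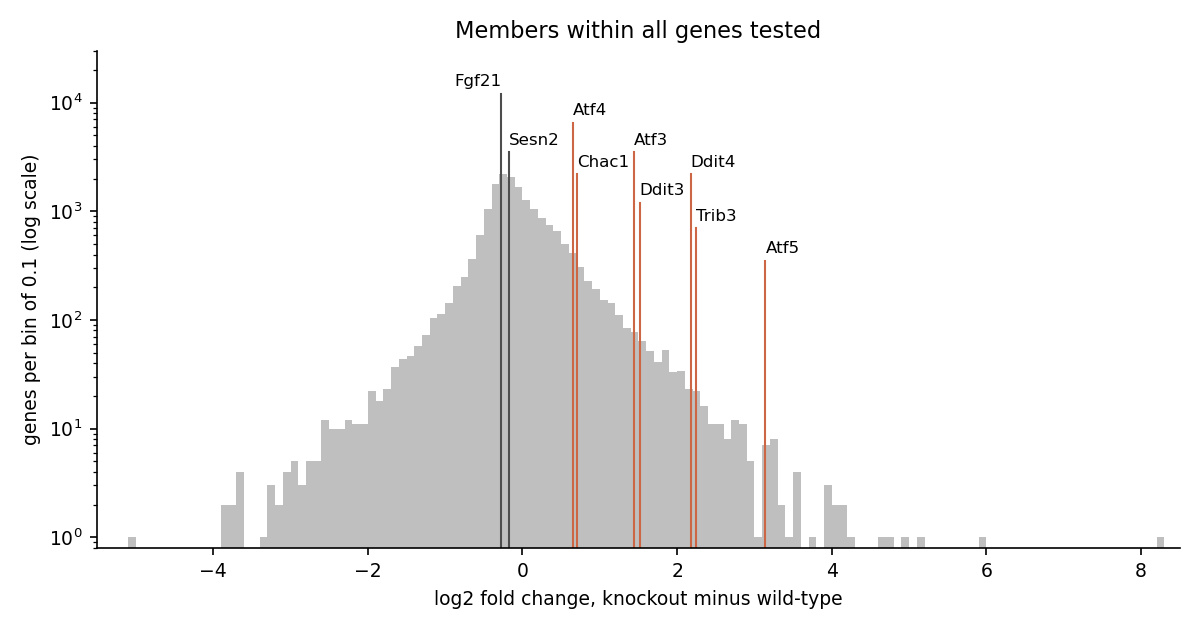
Number of genes per bin of log2 fold change, knockout minus wild-type (log count axis), for all 18193 genes in grey, with the members as vertical lines, orange where higher by limma and dark where not called; line heights only separate the names. Atf5 stands far in the upper tail at 3.14, and Sesn2 and Fgf21 lie near the bulk of the genes.

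The kinases upstream of ATF4 moved in both directions. Their list also holds phosphatase subunits and the subunits of eIF2 and its exchange factor eIF2B. Of its 16 measured genes, 6 were higher and 3 lower, with a median of 0.10. That is 56.2% called, where 49.2% of all genes were called. Eif2ak2 was 2.12-fold higher (SE 0.11 on the log2 scale, adjusted p = 0.000223), Eif2ak4 1.49-fold and Eif2ak3 1.43-fold higher, and Eif2ak1 1.36-fold lower. Other Eif2ak2 probe sets rose less, with log2 fold changes of 0.62 and 0.54 against 1.08. Their adjusted p-values were 0.00168 and 0.0134 by limma over all probe sets. A second Eif2ak1 probe set was also lower (log2 fold change -0.55, adjusted p = 0.00341 by limma over all probe sets). Further Eif2ak1 probe sets, at -0.04, -0.25 and -0.03, were not called (adjusted p = 0.757, 0.0998 and 0.796 by the same test). Another Eif2ak3 probe set was lower (log2 fold change -0.40, adjusted p = 0.033 over all probe sets), and with all its probe sets averaged Eif2ak3 was not called (0.06, adjusted p = 0.579). Eif2ak4 was not called without knockout 1, 2 or 3 (adjusted p = 0.0678, 0.0644 and 0.0932). Without any 1 of the knockout arrays the list had 3 higher and 1 lower, and without wild-type 2 it had 1 lower. Ppp1r15a (GADD34), the inducible subunit that reverses eIF2 phosphorylation and a target of ATF4 and CHOP, did not pass (log2 fold change 0.13, 95% interval -0.15 to 0.40, adjusted p = 0.387 by limma). This gene was picked after its values were seen.

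Of 25 measured bZIP partners and relatives, 11 were higher and 3 lower (1 lower without knockout 1), with a median of 0.18. In this list 56% were called, where 49.2% of all genes were called. The AP-1 factors led, with Fosl2 4.96-fold, Fos 3.70-fold and Junb 3.45-fold higher. Fos averaged 5.94 ± 0.09 (SD, n = 3) in wild-type arrays, each under the array medians, so the size of its fold is uncertain. A second Fosl2 probe set was not called (log2 fold change -0.09, adjusted p = 0.411 over all probe sets). Cebpb, a dimerisation partner of both ATF4 and CHOP, was 2.12-fold higher (log2 fold change 1.08, SE 0.12, adjusted p = 0.000325 by limma), and was picked after its values were seen. Maf, a large bZIP factor of differentiated cells, was 2.06-fold lower.

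Other target genes of ATF4 were mostly higher. Of 38 measured, 28 were higher and 4 lower, with a median of 0.75. In this list 84.2% were called, where 49.2% of all genes were called, 21.6% higher and 27.7% lower. By role, 10 of 10 aminoacyl-tRNA synthetases (log2 fold changes 0.35 to 1.10), 5 of 9 amino acid transporters and 8 of 13 enzymes of amino acid and one-carbon metabolism were higher. Aldh1l2, a mitochondrial folate dehydrogenase, led at 11.9-fold (log2 fold change 3.57, SE 0.18, adjusted p = 1.91e-05 by limma). Its wild-type arrays read 5.32, 5.95 and 5.51 and its knockout arrays 9.37, 9.16 and 8.96, so the wild-type level was below the array medians and the size of the fold is uncertain. Aldh18a1, of proline synthesis, had a log2 fold change of 3.05 in the probe set used and 0.17 to 1.05 in its 4 others. The probe set used read 4.90, 5.51 and 4.94 in wild-type arrays, under the array medians, so the size of that difference is uncertain too. Asns, which makes asparagine, had 2.44, and Shmt2, the mitochondrial serine hydroxymethyltransferase, was lower at -1.30. The 4 lower genes, Shmt2, Cth, Cbs and Got1, are all enzymes; the last 3 were picked after their values were seen, and Cbs was not called without knockout 3 (adjusted p = 0.0531).

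Of 10 genes linked to CHOP, 8 were higher and 0 lower by limma (0 lower at an unadjusted p under 0.05), with a median of 0.87. That is 80% called, where 49.2% of all genes were called, 21.6% higher and 27.7% lower. Nupr1, a stress-induced chromatin protein that is also in the ATF4 list, was 3.97-fold higher. Casp12, an ER-associated caspase, was 3.20-fold and Pmaip1 (NOXA), a BH3-only death protein, 2.41-fold higher. Adjusted p-values of the 3 ran from 2.38e-05 to 0.00312 by limma. The 2 not called were Tnfrsf10b, the death receptor DR5, and Ppp1r15a; Tnfrsf10b was picked after its values were seen. The list holds Bcl2, which opposes cell death and which CHOP is known to repress, among its higher genes (log2 fold change 0.88); it was picked after its values had been seen.

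Of 29 ER stress genes of the ATF6 and XBP1 arms, 13 were higher and 3 lower, with a median of 0.24. That is 55.2% called, where 49.2% of all genes were called and 21.6% were higher. Averaging all probe sets of a gene left 6 higher, and leaving out knockout 1, 2 or 3 left 8, 7 and 8. Sec61a1, of the ER translocon, was 1.69-fold higher, but 3 of its 6 probe sets were not called. Manf, a secreted ER stress protein, was 1.64-fold higher, a call that ended without knockout 1, 2 or 3 (adjusted p = 0.0741, 0.0853 and 0.0754). Herpud1, of ER-associated degradation, was 1.69-fold lower. Also among the lower genes was Cryba4, with means of 4.6 in wild-type and 4.2 in knockout arrays, under the array medians. Cryba4 was picked after its values were seen. Hspa5, the ER chaperone BiP and the usual marker of this response, was 1.39-fold higher (SE 0.14 on the log2 scale, adjusted p = 0.0258 by limma) and was picked after its values were seen. It was not called without knockout 1, 2 or 3 (adjusted p = 0.0662, 0.0738 and 0.0686) or with its probe sets averaged (adjusted p = 0.0834).

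Of 13 mitochondrial stress chaperones and proteases, 6 were lower and 0 higher by limma (0 higher at an unadjusted p under 0.05, and 1 called higher without wild-type 1), with a median of -0.22. In this list 46.2% were called, where 49.2% of all genes were called and 27.7% were lower. Trap1, a mitochondrial HSP90, was 1.97-fold lower, and Clpx and Clpp, which form a matrix protease, were 1.80-fold and 1.57-fold lower. With all probe sets averaged Clpx was not called (log2 fold change -0.25, adjusted p = 0.0507). Dele1, which relays mitochondrial stress to the kinase HRI, was lower by the same test (log2 fold change -0.48), and was picked after its values were seen.

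Relatives of the members did not move as one group. Of 14 relatives and receptors, 3 were higher and 6 lower, with a median of -0.20. In this list 64.3% were called, where 49.2% of all genes were called. The lower genes include Fgf23, with means of 4.6 in wild-type and 4.2 in knockout arrays, under the array medians. Fgf23 was picked after its values were seen. Ddit4l (REDD2), the relative of Ddit4, was 3.81-fold higher, with 3 probe sets called higher. Chac2, the constitutive relative of Chac1, was 1.87-fold lower. Kl, the alpha-Klotho coreceptor of FGF23 made in distal tubule, fell by 2.32 on the log2 scale. A second Kl probe set fell less (log2 fold change -1.23, adjusted p = 0.00137 by limma over all probe sets). Markers of the loop of Henle and distal tubule were lower in the same samples, 9 of 10, and their part in the change of Kl was not tested. Klb, the coreceptor through which FGF21 signals, did not pass (log2 fold change -0.13, 95% interval -0.39 to 0.13, adjusted p = 0.363 by limma), was below the array medians and was picked after its values were seen.

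In the mTORC1 circuit that Ddit4 and Sesn2 act on, 3 of 23 genes were higher and 6 lower, with a median of -0.13. That is 39.1% called, below the 49.2% called among all genes, whose median was -0.11. Of all genes 21.6% were higher and 27.7% lower. After quantile normalization 10 genes of the circuit were lower. Eif4ebp1 (4E-BP1), the translation repressor that mTORC1 phosphorylates and also a target of ATF4, was 3.54-fold higher. 1 of its 3 probe sets was not called (log2 fold change -0.18, adjusted p = 0.154 over all probe sets). Mtor itself was 2.17-fold lower and Nprl2, of the GATOR1 complex, 1.46-fold lower. The Mtor probe set used had a log2 fold change of -1.12, and its other probe sets changed less. Those read -0.48 and -0.43 (adjusted p = 0.00429 and 0.0256 by limma over all probe sets).

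**Figure D4:**
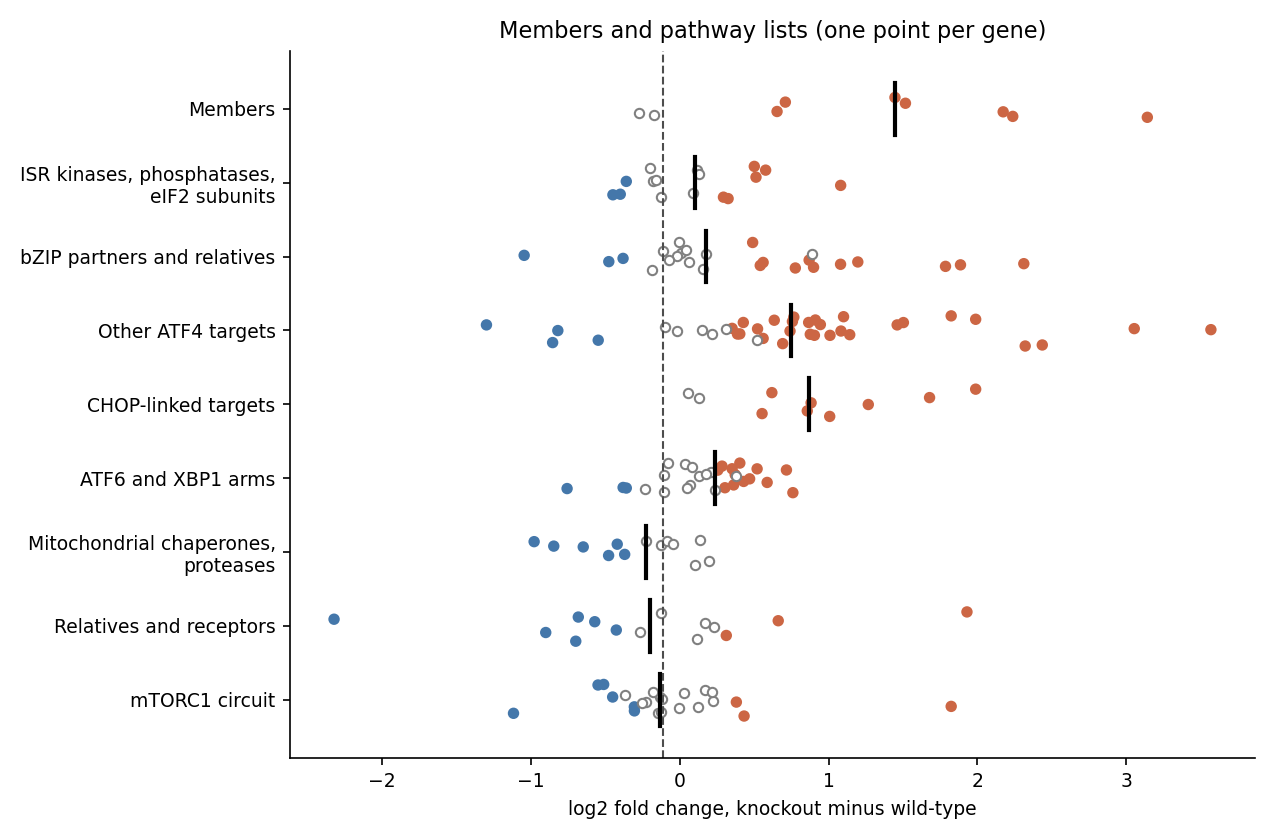
Log2 fold change, knockout minus wild-type (horizontal axis), of each measured gene of the members and of 8 pathway lists; orange and blue points were called higher and lower by limma, open points were not called, black bars are list medians and the dashed line is the median of all genes, -0.11. The members, the other ATF4 targets and the CHOP-linked targets have medians of 1.45, 0.75 and 0.87, and the ATF6 and XBP1 arms one of 0.24.

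Markers of cell types moved in the same samples. The tissue held high levels of proximal tubule markers, whose mean over 17 genes lay at 12.77 to 12.87 in wild-type arrays and at 11.07 to 11.36 in knockout arrays, with 16 lower. Of 15 immune markers 13 were higher, with means of 7.88 to 8.07 and 9.19 to 9.62. Of 14 fibroblast and matrix markers 10 were higher (8.17 to 8.44 and 9.24 to 10.27), and of 10 tubular injury markers 10 (7.78 to 8.41 and 11.31 to 11.36). Lower were 9 of 10 markers of distal tubule and loop of Henle (11.80 to 11.88 and 10.15 to 10.66), 4 of 10 collecting duct markers (9.32 to 9.63 and 8.51 to 8.86), 7 of 10 endothelial markers (8.81 to 8.99 and 8.30 to 8.51) and 4 of 6 podocyte markers (8.35 to 8.49 and 7.56 to 7.73). Over all genes 21.6% were higher and 27.7% lower. In the collecting duct list 40% were called, below the 49.2% of all genes, and its median log2 fold change was -0.20. In the endothelial list 1 marker was higher. Their part in the changes of the members was not tested. In such tissue samples fewer cells of a type and less RNA per cell cannot be told apart.

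The genes most like 3 of the members over the 6 arrays were taken by Pearson r, as a description, since both groups lie apart and that difference alone gives high values. For Ddit3 these were Wdr77, Nipsnap3b and Slc7a1, for Atf4 Cyb5r1, Pir and Syce2, and for Atf5 Plscr1, Dut and Mab21l3. Slc7a1, the cationic amino acid transporter, is the one of these in the ATF4 list.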

How the data were processed

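The deposited table holds 45101 probe sets on 6 arrays. The authors made its log2 values (2.9 to 14.8; the scale was read from the values) with RMA, per the submitters' processing notes, with no software, version or chip definition named in the sources used here. RMA normalises between arrays and compresses folds of dim genes. Probe sets were named through GEO's platform annotation, which can be old, with symbols updated through RefSeq: 34945 had 1 gene, 932 several, 9160 none, and 64 were controls. Each of 18193 genes took its brightest probe set over the 6 arrays.

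Knockout and wild-type were compared in limma 3.58.1 under R 4.3.3 (lmFit, then eBayes; two-sided, unfiltered, without covariates), and over 45037 probe sets for the further probe sets. In this text "higher", "lower", "rose" and "called" mean an adjusted p under 0.05. The number of arrays, 3 per group, limits precision. On simulated data with these variances, over 18193 genes, 50, 100 and 50 genes were changed by 0.5, 1 and 2 (log2). Of these, 34%, 85% and 94% were recovered, with 9 false calls among 158. In the data 49.2% of genes were called, a far larger share than was changed there. The adjustment depends on that share, so these rates do not give the power of the real test.

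The members and lists were chosen with earlier results of these data known. The rule for named genes took all members, from each list the 3 called genes that changed most and the top one of opposite direction (the 2 of smallest p where under 2 passed), and the 3 genes most correlated with Ddit3, Atf4 and the most changed member. Python 3.11.15 and matplotlib 3.10.9 searched motifs and drew plots. Alternatives are given in the closing section.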

Additional observations from a re-analysis of the deposited data

How the results depend on the processing

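Over 14 alternatives (13 for the genes under the median signal), the 7 higher members kept their direction and call, with adjusted p of 8.6e-06 to 0.00562, and of the named genes Tnfrsf10b alone changed direction (-0.021 with arrays centred on the median over tested genes, against 0.06; not called in either). Their log2 fold changes ranged from 0.50 to 0.69 for Atf4, 3.00 to 3.29 for Atf5, 1.06 to 1.63 for Ddit3 and 2.06 to 2.64 for Trib3. Sesn2 was not called in any of its 14 (adjusted p 0.0667 to 0.463). Centring arrays on the median over tested genes, chosen after seeing the data, called 1 member lower, Fgf21. Of all genes, 3113 to 3860 were higher and 3160 to 4810 lower when 1 array was left out (3160 without knockout 1 and 3279 without knockout 3); 2334 were lower when dim genes, under the median signal, were left out, and 990 were higher and 617 lower at 2-fold or more. Among upstream kinases and eIF2 genes, quantile normalization gave 3 higher and 7 lower, averaged probe sets 5 lower and the tested-gene centring 6 lower; leaving out 1 array gave 3 to 6 higher and 1 to 3 lower. The bZIP list then had 1 to 3 lower, the ATF6 and XBP1 list 7 to 13 higher (6 with averaged probe sets) and the mitochondrial list 0 to 1 higher. Quantile normalization gave 10 lower genes in the mTORC1 list. The cause was not tested. Deviations from the group means correlated at -0.10, -0.13 and -0.13 between wild-type and knockout samples sharing the numbers 1, 2 and 3. With 3 arrays per group these values cannot exclude that the numbers pair the samples. With the replicate block 7 members were higher and 0 lower, and 3510 genes were higher and 3930 lower. Signal near or under the array medians limits Fgf21, Klb, Tnfrsf10b, Cryba4 and Fgf23. Through their wild-type arrays, it also limits the sizes of the folds of Atf3, Trib3, Aldh1l2, Aldh18a1 and Fos.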
